A study of Mus musculus with 9 samples.

Results

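The genes described here build and run the mitotic spindle in mammalian cells: kinesin motors, centromere and kinetochore proteins, the spindle checkpoint, the passenger complex, mitotic kinases, condensins and the factors of cytokinesis. They were taken from the count table by symbol, as the protein-coding genes whose names belong to these families, which gave 111 of the 21676 genes in the table. Of these, 107 had enough reads to be tested among 13807 tested genes. The other 4, Aurkc, Kif17, Kif1a and Kif28, had at most 11 reads summed over the 3 libraries of any group. The choice by family name also takes in 27 kinesins that were not put in the list of mitotic kinesins. Many of them carry cargo, build cilia or trim microtubules, and all 27 were kept apart as "other kinesins".

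RNA-seq was made from B16 cells, an established mouse melanoma line grown in DMEM with fetal bovine serum; the labels give the tissue as skin and the cells as melanoma cells. Cells with the hairpin shAD4-1 gave 3 libraries, cells with the hairpin shAD4-2 gave 3, and cells with a control hairpin, called control here, gave 3. The series text calls the first 2 groups knockdown derivatives and names 3 biological replicates per group, and the series title names ADGRL4. The sources used here do not say whether a derivative is a clone or a pool, so the p-values measure the spread between these libraries, which may be technical.

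In mitosis a bipolar array of microtubules is built by motors and bundling proteins, and chromosomes attach to it through kinetochores that assemble on centromeres carrying the histone variant CENP-A. The spindle checkpoint holds back the anaphase-promoting ubiquitin ligase until all kinetochores are attached, after which separase cuts cohesin and the cell divides. Many of these genes are transcribed late in the cell cycle, and their messages are widely read as a mark of dividing cells. In bulk RNA, fewer cells in G2 and mitosis and less message per cell cannot be told apart.

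A known feature of such late genes is a promoter element called the cell cycle homology region (CHR), recognised by the MuvB complex, often with CCAAT boxes for the factor NF-Y upstream. The 150 bases before the RefSeq start of 5 of these genes are shown because they carry both motifs in different layouts; the values of the same genes follow below. Capitals mark the CHR core, searched as TTTGAA or TTCGAA on either strand, and the CCAAT box, on either strand. Sequences are 5′ to 3′ on the gene's strand, from RefSeq on GRCm38.p6, which is another build than the one named for the count table. Cdc20, the activator of the anaphase-promoting complex, lies at chr4:118437344-118437493 on the minus strand. Ube2c, its ubiquitin-conjugating enzyme, lies at chr2:164769779-164769928 on the plus strand, and Espl1, the separase, at chr15:102296143-102296292 on the plus strand. Top2a, the topoisomerase that untangles sister chromatids, lies at chr11:99024190-99024339 on the minus strand, and Mki67, the chromosome surface protein Ki-67, at chr7:135716380-135716529 on the minus strand.
Cdc20: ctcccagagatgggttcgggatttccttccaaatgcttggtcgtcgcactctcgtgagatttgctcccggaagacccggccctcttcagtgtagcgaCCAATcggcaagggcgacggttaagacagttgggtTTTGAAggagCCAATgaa
Ube2c: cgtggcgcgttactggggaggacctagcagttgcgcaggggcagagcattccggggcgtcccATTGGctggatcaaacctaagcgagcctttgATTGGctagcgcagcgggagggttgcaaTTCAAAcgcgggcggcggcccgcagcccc
Espl1: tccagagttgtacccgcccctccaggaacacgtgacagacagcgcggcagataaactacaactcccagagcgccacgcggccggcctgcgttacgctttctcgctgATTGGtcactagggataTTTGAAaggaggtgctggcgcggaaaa
Top2a: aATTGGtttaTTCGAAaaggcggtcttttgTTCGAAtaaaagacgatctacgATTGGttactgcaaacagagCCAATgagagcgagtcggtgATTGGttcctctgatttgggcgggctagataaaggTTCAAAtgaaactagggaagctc
Mki67: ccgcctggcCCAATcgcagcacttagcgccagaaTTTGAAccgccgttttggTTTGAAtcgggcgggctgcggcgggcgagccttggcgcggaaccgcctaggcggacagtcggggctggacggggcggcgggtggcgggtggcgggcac

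Cdc20, Ube2c and Espl1 each had 1 CHR core, at positions -18, -29 and -27 from the start. Top2a had 3, at -140, -120 and -23, with 4 CCAAT boxes in the stretch shown. Mki67 had 2, at -116 and -98, and none in the last 50 bases before the start.

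The gene counts summed to 31.3 to 36.9 M reads per library. The 7 melanocyte and melanoma markers (Mitf, Sox10, Pmel, Tyr, Tyrp1, Dct and Mlana) summed to 9882 to 10100 CPM with shAD4-1, 10720 to 11720 with shAD4-2 and 11070 to 12680 with control, where CPM is the read count per M reads after TMM scaling. The 3 endothelial markers in the table summed to at most 0.283 CPM in any library and Krt10, the 1 keratinocyte marker in the table, to at most 0.107. The 4 fibroblast markers in the table, with Col1a1, Col1a2 and Pdgfra as their main reads, summed to 10.35 to 12.22 CPM with shAD4-1, 12.35 to 13.96 with shAD4-2 and 5.14 to 7.21 with control. Ptprc, the general leukocyte marker, averaged at most 0.00945 CPM in any group. The 5 leukocyte markers, mainly Cd68 and Lyz2, summed to 7.404 to 7.973 CPM with shAD4-1, 7.896 to 8.635 with shAD4-2 and 3.231 to 3.737 with control. Mitochondrially encoded genes took 3.7352 ± 0.1038% of reads with shAD4-1, 3.7196 ± 0.1502% with shAD4-2 and 2.4505 ± 0.1559% with control (SD, n = 3 each). These 3 measures move with both comparisons with control; the fibroblast and leukocyte markers' part in the results was not tested, and the counts of called members without mitochondrially encoded genes stayed within 1.5 times those given here. Control replicate 1 stood apart from the other control libraries: chi-square per degree of freedom over gene counts was 12.1 and 17.6 against them, and 3.38 between them. Without it, 28 of the tested spindle genes were higher and 43 lower with shAD4-1 against control, and 59 were higher and 20 lower with shAD4-2 against control, beside the counts given below for all libraries.

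Together the 111 genes took 0.564 ± 0.0041% of reads with shAD4-1, 0.6472 ± 0.002% with shAD4-2 and 0.6182 ± 0.0082% with control (SD, n = 3 each). The shAD4-1 libraries lay below all control libraries and the shAD4-2 libraries above them. Behind these sums the genes did not move as a block, as the map of all tested genes by library shows.

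**Figure D1:**
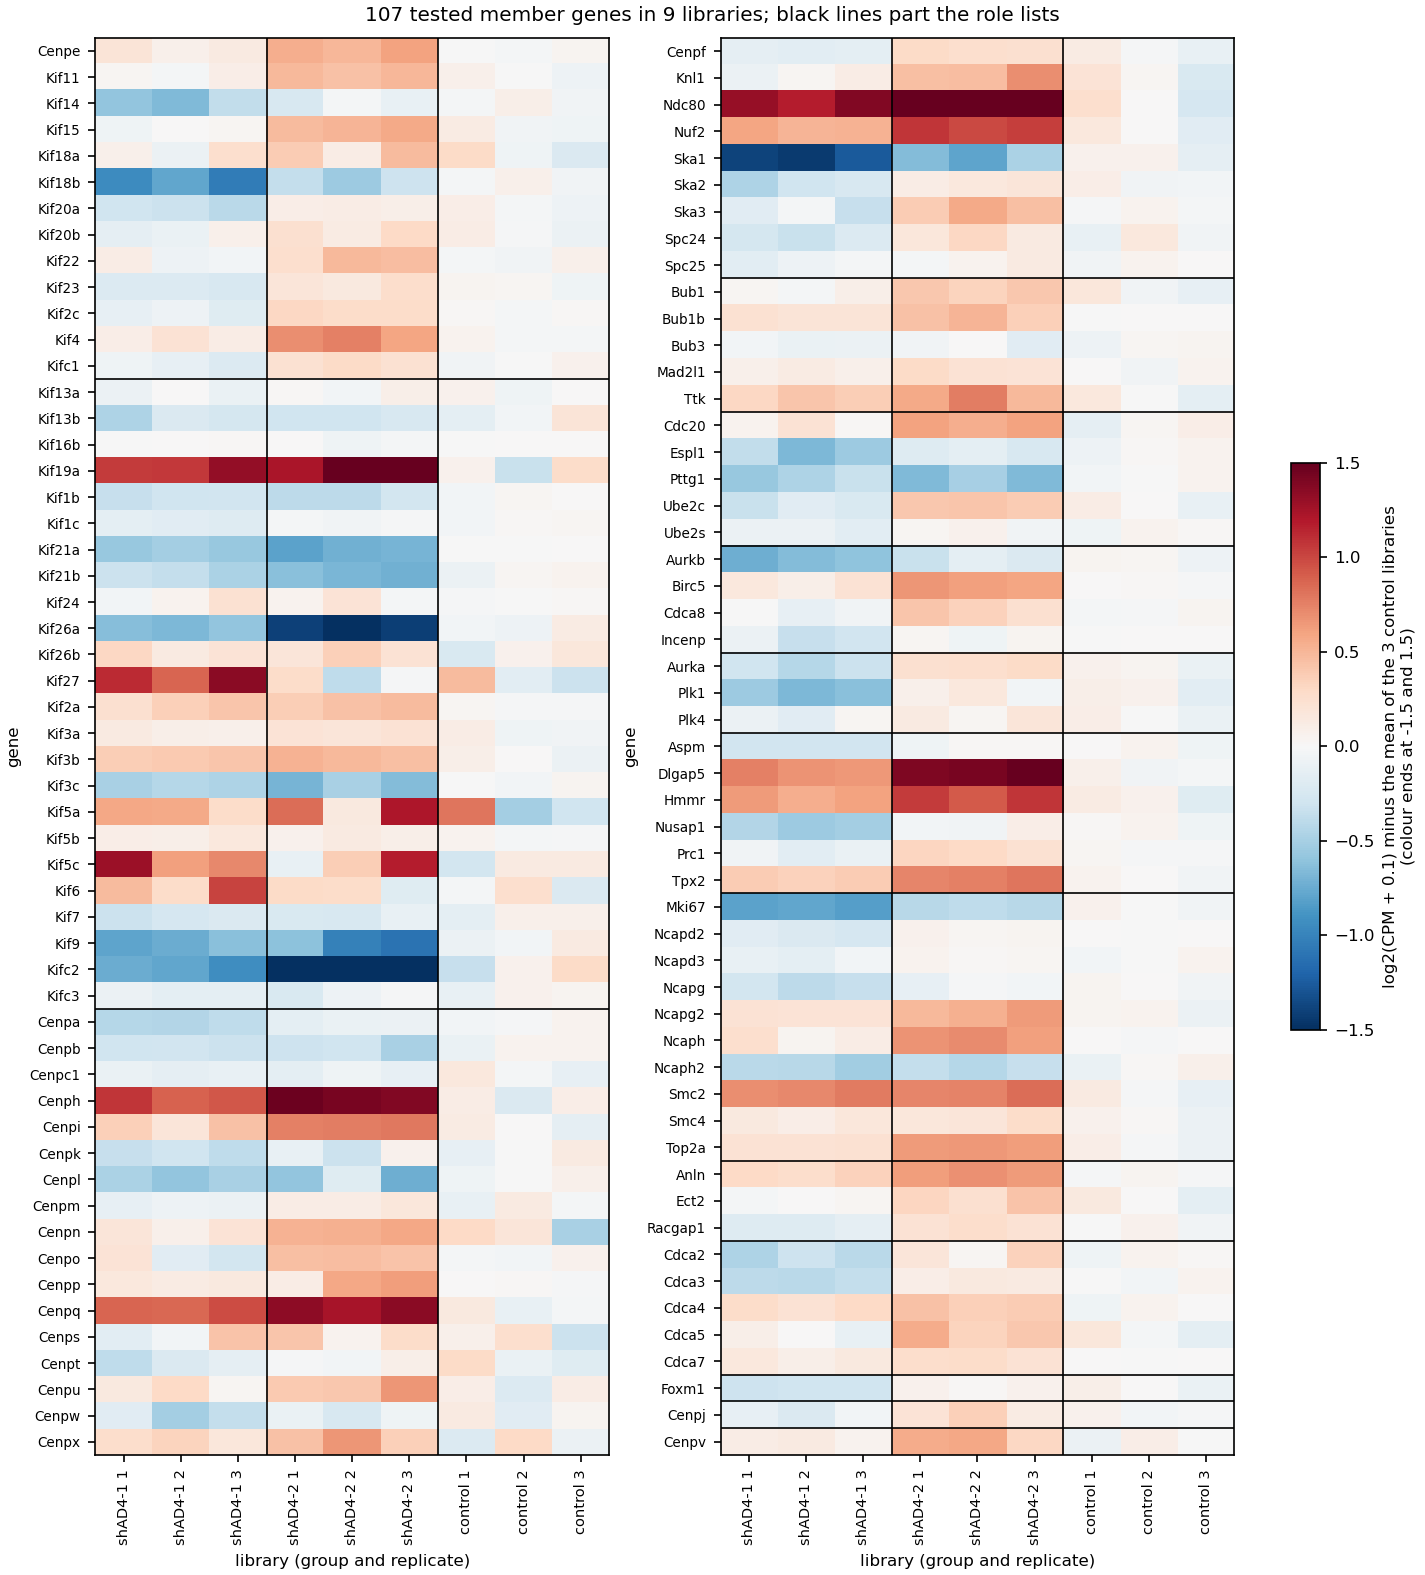
Each of the 107 tested genes (rows, grouped by role) in each of the 9 libraries (columns), as log2(CPM + 0.1) minus the mean of the 3 control libraries; red is above and blue below that mean, with colours ending at 1.5 either way. Ndc80, Cenph, Cenpq, Dlgap5 and Smc2 are red in all 6 hairpin libraries, Mki67, Ska1, Kif18b and Kifc2 are blue in all 6, and most rows are redder in the shAD4-2 than in the shAD4-1 columns.

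With shAD4-1 against control, 26 tested genes were higher and 42 lower at an adjusted p under 0.05 (edgeR's quasi-likelihood test, Benjamini-Hochberg adjustment over all 13807 tested genes), and 39 did not pass. Of all tested genes 65% were called in this comparison, 32.7% higher and 32.3% lower, so the 68 called genes are near the background share. The median log2 fold change over the 107 genes was -0.076, beside -0.01 over all tested genes, and the genes ranged between -1.38 (Ska1) and 1.31 (Kif27, which had the fewest control reads of those tested). At a fold of 1.5 or more, 10 were higher and 8 lower, beside 12.6% and 12.5% of all tested genes (25.1% in either direction). With limma on FPKM of genes with at least 1 FPKM in 3 libraries, 17 were called higher, and the median was -0.139 on log2(FPKM + 1) and -0.153 on log2(FPKM + 0.1), beside -0.051 and -0.058 over all genes in those fits.

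With shAD4-2 against control, 56 were higher and 18 lower, and 33 did not pass. The background was 69% called, with 34.2% higher and 34.8% lower. The median log2 fold change was 0.218, beside -0.011 over all tested genes. On log2(FPKM + 1) with limma it was 0.138 with the filter on low FPKM, beside -0.044 over all genes in that fit, and 0.098 with no filter, beside 0 over all genes. At a fold of 1.5 or more, 16 were higher and 8 lower, beside 13.7% and 15.6% of all tested genes (29.3% in either direction). Both comparisons use the same 3 control libraries, so their values are set side by side below and no agreement between them is counted.

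With shAD4-2 against shAD4-1, a comparison that shares its libraries with the other 2 but uses no control library in the contrast, 63 were higher and 6 lower, and 38 did not pass. Of all tested genes 27.4% were called, 13.4% higher and 14% lower. The median log2 fold change over the 107 genes was 0.326, beside -0.005 over all tested genes. The genes split by role here. Of the 83 tested genes that are not other kinesins, 62 were higher, with a median of 0.386; of the 24 tested other kinesins, 1 was higher and 6 lower, with a median of -0.01. Few differences were large: at a fold of 1.5 or more, 6 of the 107 genes were higher and 3 lower. Of all 13807 tested genes, 133 were higher and 405 lower (0.963% and 2.93%, 3.9% in either direction). The share higher was above this background and the share lower was near it.

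**Figure D2:**
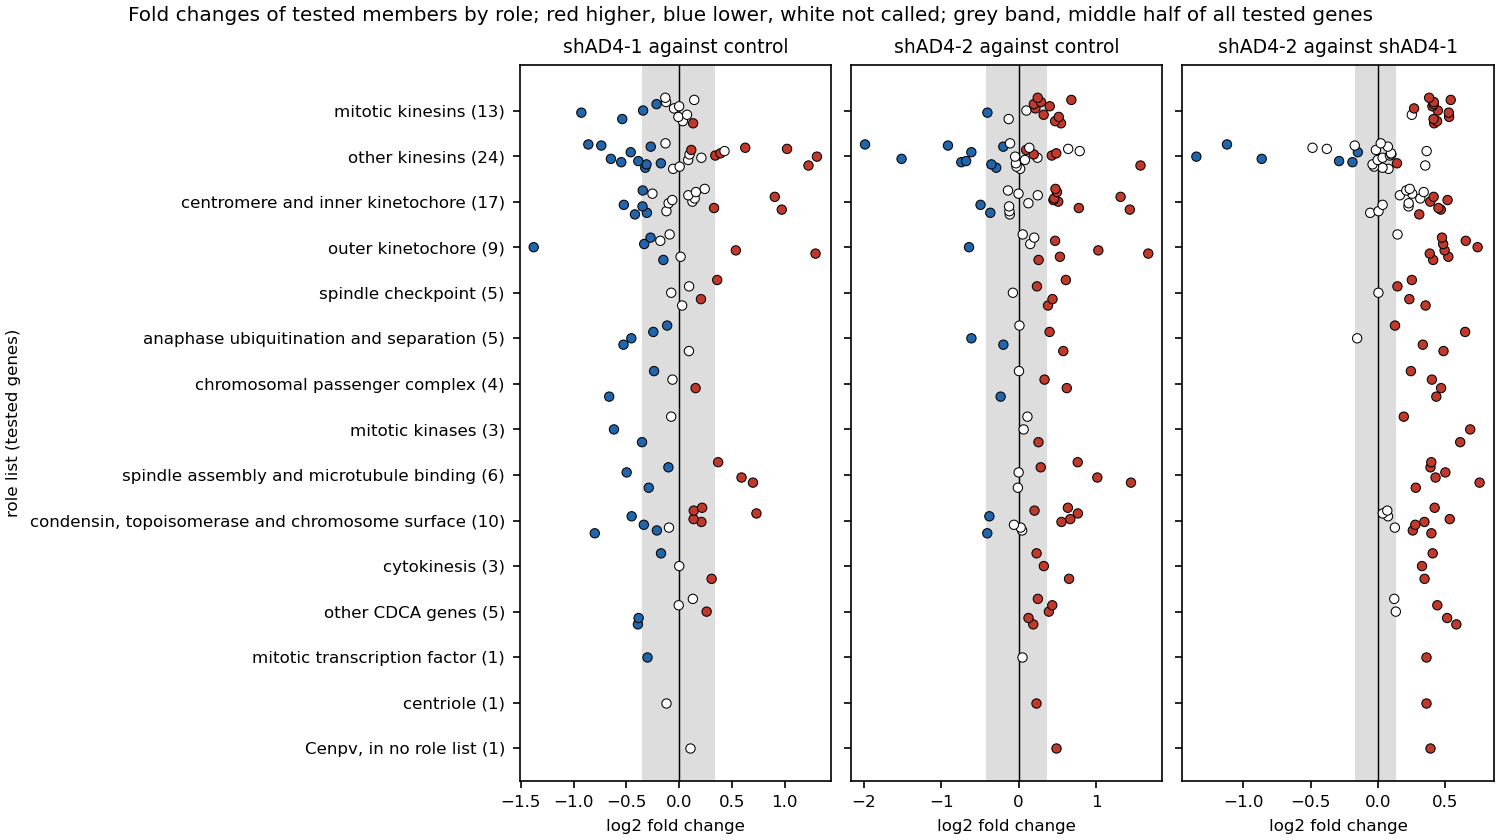
Log2 fold change (x axis) of each tested gene, by role list (y axis, number of tested genes in brackets), in the 3 comparisons; red points were higher, blue lower and white not called, and the grey band spans the middle part of all tested genes, between the lower and upper quartile. Against shAD4-1 the shAD4-2 values of most lists lie right of the band, and those of the other kinesins spread to both sides of 0.

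The shares of all tested genes stand beside each role list below. They were 32.7% higher and 32.3% lower with shAD4-1 against control, 34.2% and 34.8% with shAD4-2 against control, and 13.4% and 14% between the hairpins. Role counts near these shares are not read as results about the genes. The mitotic kinesins, 13 motors that push poles apart, carry chromosomes or shape the midzone, were mostly higher with shAD4-2. Against shAD4-1, 12 of the 13 were higher with shAD4-2 (median log2 fold change 0.414). Against control, 1 was higher and 4 lower with shAD4-1, and 10 were higher and 1 lower with shAD4-2 (medians -0.049 and 0.289). Kif11, the motor that separates the spindle poles, had 67.3, 64.3 and 70.2 CPM in the shAD4-1 libraries, 91.9, 89.0 and 92.5 CPM in the shAD4-2 libraries, and 69.4, 65.6 and 62.2 CPM in the control libraries. The shAD4-2 libraries were the highest and the other groups overlapped. Its log2 fold change was 0.44 ± 0.049 for shAD4-2 against shAD4-1 (edgeR adjusted p = 5.61e-06) and 0.47 ± 0.050 against control (edgeR adjusted p = 1.11e-07), while for shAD4-1 against control the 95% interval ran from -0.071 to 0.14.

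Kif4, a chromosome-arm motor that also sets midzone length, followed the same order, with 27.3, 29.7 and 27.6 CPM in the shAD4-1 libraries, 41.3, 43.1 and 38.4 CPM in the shAD4-2 libraries, and 26.5, 25.02 and 25.1 CPM in the control libraries. The shAD4-2 libraries were above all others, and the shAD4-1 libraries lay just above control without passing the test (log2 fold change 0.14 ± 0.064, edgeR adjusted p = 0.0566). With shAD4-2 it was 1.60-fold the control level (edgeR adjusted p = 1.78e-08). Cenpe, which carries chromosomes toward the metaphase plate, had log2 fold changes of 0.13 ± 0.049 with shAD4-1 and 0.55 ± 0.049 with shAD4-2 against control; the first was lost without control replicate 2, shAD4-1 replicate 1 or shAD4-1 replicate 3 (highest edgeR adjusted p = 0.109). Kif18b, which shortens astral microtubules, went the other way against control, with 15.3, 17.2 and 14.3 CPM in the shAD4-1 libraries, 23.2, 20.2 and 23.8 CPM in the shAD4-2 libraries, and 29.1, 31.2 and 28.5 CPM in the control libraries. No library of one group reached into another, and the order was control, shAD4-2, shAD4-1 downward. Its log2 fold changes were -0.93 ± 0.081 with shAD4-1 (edgeR adjusted p = 1.09e-08) and -0.40 ± 0.079 with shAD4-2 (edgeR adjusted p = 0.000188) against control.

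Kif14 and Kif20a, both motors of the midzone and cytokinesis, fell with shAD4-1 against control, with log2 fold changes of -0.54 ± 0.088 for Kif14 and -0.34 ± 0.054 for Kif20a. With shAD4-2 against control the values, -0.13 ± 0.086 for Kif14 and 0.10 ± 0.054 for Kif20a, did not pass the test. Against shAD4-1, shAD4-2 was higher for both, with log2 fold changes of 0.41 ± 0.089 for Kif14 and 0.44 ± 0.054 for Kif20a.

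At the outer kinetochore, the layer that grips microtubules, the subunits of single complexes moved apart against control. Ndc80 and Nuf2 form the microtubule-binding end of the NDC80 complex, and Spc24 and Spc25 anchor it. Ndc80 had 42.6, 39.0 and 45.1 CPM in the shAD4-1 libraries, 54.1, 54.4 and 57.0 CPM in the shAD4-2 libraries, and 20.5, 17.2 and 14.3 CPM in the control libraries. All hairpin libraries exceeded all control libraries, and the shAD4-2 libraries exceeded the shAD4-1 libraries. Ndc80 was 2.45-fold the control level with shAD4-1 (log2 1.29 ± 0.091, edgeR adjusted p = 5.54e-10) and 3.19-fold with shAD4-2 (log2 1.68 ± 0.090, edgeR adjusted p = 1.15e-11), the largest value among the 107 genes in the comparison of shAD4-2 with control.

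Nuf2 had 37.2, 35.1 and 35.3 CPM in the shAD4-1 libraries, 51.9, 49.0 and 50.7 CPM in the shAD4-2 libraries, and 27.6, 24.8 and 21.9 CPM in the control libraries, again with no overlap between the 3 groups. It was 1.45-fold with shAD4-1 (edgeR adjusted p = 2.55e-06) and 2.04-fold with shAD4-2 (edgeR adjusted p = 2.94e-10) against control. Spc24 had 9.38, 8.93 and 9.72 CPM in the shAD4-1 libraries, 12.7, 14.0 and 12.3 CPM in the shAD4-2 libraries, and 10.4, 12.6 and 10.8 CPM in the control libraries. Its shAD4-1 libraries lay below control, and its shAD4-2 and control libraries overlapped. The log2 fold change of Spc24 was -0.27 ± 0.098 with shAD4-1 (edgeR adjusted p = 0.021), a call lost without control replicate 2 or shAD4-1 replicate 2 (highest edgeR adjusted p = 0.154), and 0.20 ± 0.096 with shAD4-2, which did not pass (edgeR adjusted p = 0.0692). Spc25 passed in neither comparison, with 95% intervals of -0.23 to 0.044 and -0.081 to 0.19 on the log2 scale.

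The SKA complex, which keeps kinetochores on shrinking microtubule ends, showed the same unevenness. Ska1 had 4.22, 4.05 and 4.62 CPM in the shAD4-1 libraries, 7.09, 6.44 and 8.02 CPM in the shAD4-2 libraries, and 11.7, 11.7 and 10.2 CPM in the control libraries. The groups did not overlap, with control highest. Ska1 was 2.60-fold lower with shAD4-1 (edgeR adjusted p = 9.74e-09) and 1.56-fold lower with shAD4-2 (edgeR adjusted p = 6.94e-05) than with control. Ska3, its partner, had 10.1 ± 1.13 CPM with shAD4-1, 15.9 ± 1.08 CPM with shAD4-2 and 11.5 ± 0.380 CPM with control (SD, n = 3); it was higher with shAD4-2 than control (log2 0.47 ± 0.094, edgeR adjusted p = 0.000216) and did not pass with shAD4-1 (log2 -0.18 ± 0.097). Ska2 fell with shAD4-1 (log2 -0.33 ± 0.069) and did not pass with shAD4-2 (log2 0.15 ± 0.068). Knl1, the scaffold that recruits the checkpoint, was higher with shAD4-2 than control (log2 0.53 ± 0.092). Of the 9 outer kinetochore genes, 2 were higher and 4 lower with shAD4-1 against control, 5 higher and 1 lower with shAD4-2 against control, and 8 higher with shAD4-2 against shAD4-1 (medians -0.15, 0.259 and 0.483).

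**Figure D3:**
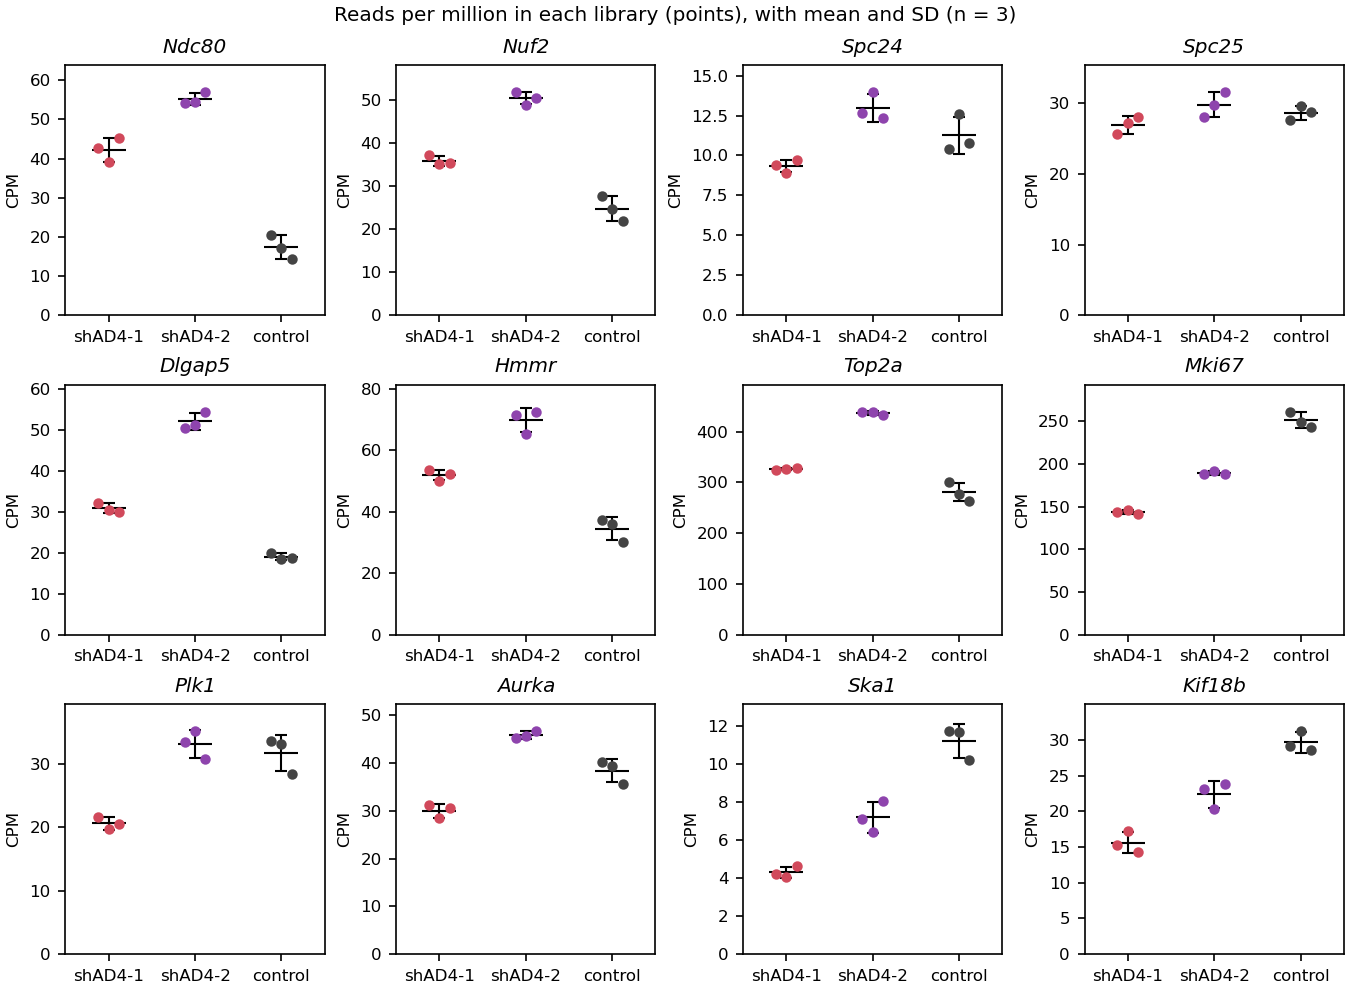
TMM-scaled read counts (CPM, y axis, starting at 0) of 12 genes in each library (points) of the 3 groups, with the group mean and SD (n = 3). Ndc80, Nuf2, Dlgap5 and Hmmr are lowest in control, Mki67, Ska1 and Kif18b are highest in control, and for Plk1 and Aurka the shAD4-1 libraries are the lowest.

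The inner kinetochore is a network of CENP proteins that sits on CENP-A chromatin. Of its 17 genes, 3 were higher and 5 lower with shAD4-1 against control (17.6% and 29.4%). With shAD4-2, 8 were higher and 2 lower against control (47.1% and 11.8%), and 6 higher against shAD4-1 (35.3%). The medians of the 3 comparisons were -0.066, 0.248 and 0.253. Cenpa, the centromeric histone itself, had 23.0, 22.9 and 23.8 CPM in the shAD4-1 libraries, 28.1, 28.9 and 29.1 CPM in the shAD4-2 libraries, and 30.2, 30.7 and 32.2 CPM in the control libraries. The 3 groups did not overlap. Cenpa fell with shAD4-1 (log2 -0.42 ± 0.059, edgeR adjusted p = 5.05e-06) and did not pass with shAD4-2 (log2 -0.11 ± 0.058, edgeR adjusted p = 0.0913) against control.

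Cenph and Cenpq, of the CENP-H/I/K/M and CENP-O/P/Q/U groups of the network, rose most. Cenph had 12.9, 11.3 and 11.7 CPM in the shAD4-1 libraries, 17.0, 16.4 and 16.02 CPM in the shAD4-2 libraries, and 6.56, 5.18 and 6.51 CPM in the control libraries. It was 1.96-fold the control level with shAD4-1 (edgeR adjusted p = 1.74e-07) and 2.71-fold with shAD4-2 (edgeR adjusted p = 5.7e-10). Cenpq had 29.6, 29.4 and 31.9 CPM in the shAD4-1 libraries, 41.1, 38.3 and 41.6 CPM in the shAD4-2 libraries, and 17.9, 15.0 and 15.8 CPM in the control libraries, which gave 1.87-fold with shAD4-1 (edgeR adjusted p = 2.89e-09) and 2.49-fold with shAD4-2 (edgeR adjusted p = 1.16e-11). For both genes the 3 groups did not overlap. Cenpi, in the same group as Cenph, had log2 fold changes of 0.33 ± 0.11 with shAD4-1 and 0.78 ± 0.11 with shAD4-2 against control; the first was lost without control replicate 3 or shAD4-1 replicate 3 (highest edgeR adjusted p = 0.0666).

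Other subunits of the network did not share this rise. Cenpk, also of the CENP-H/I/K/M group, fell with shAD4-1 (log2 -0.35 ± 0.11) and did not pass with shAD4-2 (log2 -0.12 ± 0.10). Cenpl, which pairs with Cenpn, fell with both hairpins (log2 -0.52 ± 0.13 with shAD4-1 and -0.49 ± 0.13 with shAD4-2). The plot of subunits by complex shows these splits.

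**Figure D4:**
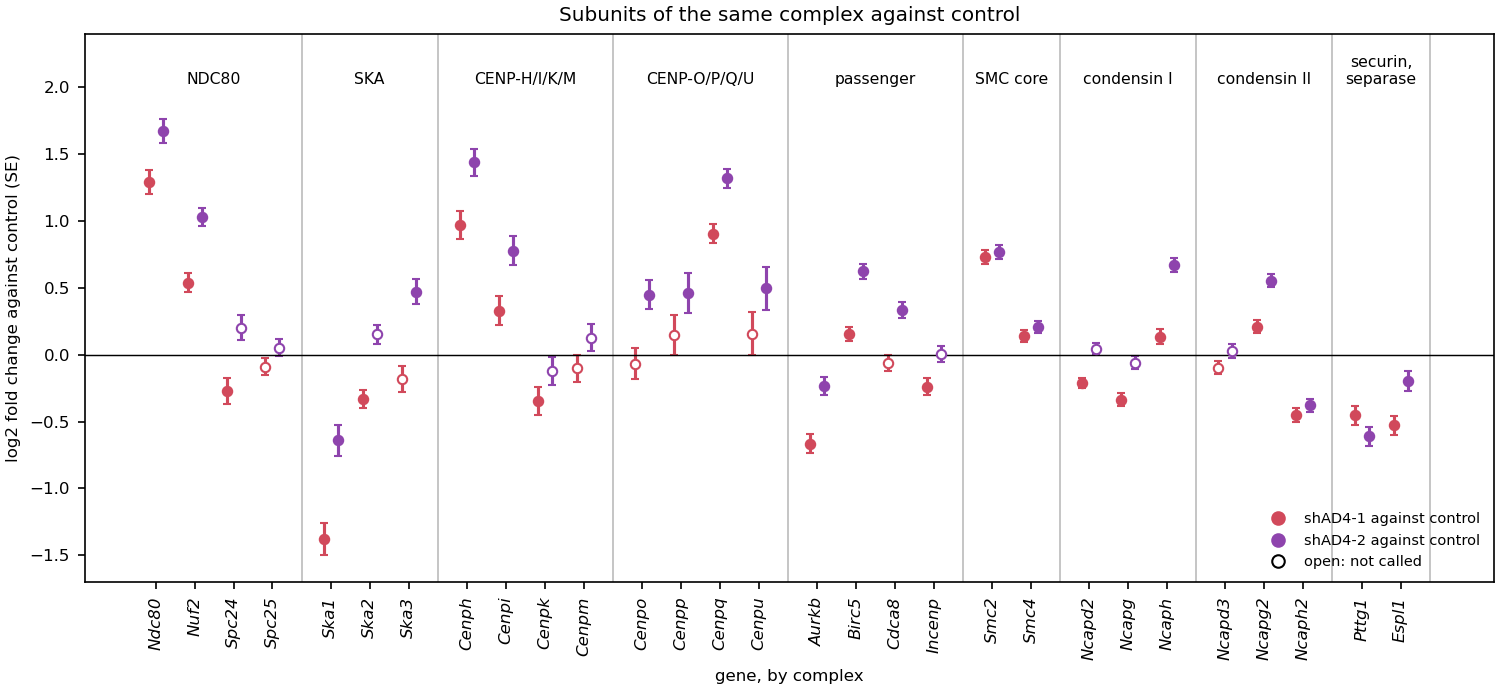
Log2 fold change against control, with its SE (y axis), of the subunits of 9 complexes or pairs (x axis), for shAD4-1 (red) and shAD4-2 (purple); filled points were called and open points were not. Subunits lie on both sides of 0, in one or both comparisons, in NDC80, SKA, CENP-H/I/K/M, CENP-O/P/Q/U, the passenger complex, condensin I and condensin II.

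The levels of 2 subunits can be compared within a library per length, in FPKM (reads per kilobase of gene model and per M reads). The FPKM ratio of Ndc80 to Spc24 was 2.82 ± 0.0866 in the shAD4-1 libraries, 2.66 ± 0.225 in the shAD4-2 libraries and 0.968 ± 0.223 in the control libraries (mean ± SD, n = 3 each). For Cenph over Cenpk the FPKM ratio was 1.78 ± 0.145 in the shAD4-1 libraries, 2.13 ± 0.315 in the shAD4-2 libraries and 0.719 ± 0.116 in the control libraries, and for Ska3 over Ska1 it was 2.65 ± 0.463 in the shAD4-1 libraries, 2.496 ± 0.410 in the shAD4-2 libraries and 1.14 ± 0.0782 in the control libraries. In each of these 3 pairs every hairpin library had a higher ratio than every control library, while the hairpin groups overlapped. For Nuf2 over Spc25 the FPKM ratio was 1.175 ± 0.0927 with shAD4-1, 1.496 ± 0.1145 with shAD4-2 and 0.7618 ± 0.1069 with control. For Ncaph over Ncapg it was 1.644 ± 0.0510, 1.966 ± 0.0956 and 1.187 ± 0.0408 in that order. In both the 3 groups did not overlap. Ratios here and below restate the fold changes of their genes, so they are no further support. No test was run on the ratios.

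The spindle checkpoint genes, which sense unattached kinetochores, were mostly higher with shAD4-2: 4 of 5 were higher with shAD4-2 against control and 4 with shAD4-2 against shAD4-1. With shAD4-1 against control 2 were higher (40%), near the 32.7% of all tested genes. Ttk, the kinase Mps1 that starts the signal, had 15.5, 16.7 and 16.2 CPM in the shAD4-1 libraries, 18.6, 21.3 and 17.6 CPM in the shAD4-2 libraries, and 13.9, 12.5 and 11.3 CPM in the control libraries. Each hairpin library exceeded each control library. Ttk was 1.28-fold with shAD4-1 (edgeR adjusted p = 0.00234) and 1.53-fold with shAD4-2 (edgeR adjusted p = 1.1e-05) against control. Its difference between the hairpins (log2 0.25 ± 0.090, edgeR adjusted p = 0.0468) was lost without any one of the shAD4-1 libraries, control replicate 2, or shAD4-2 replicate 1 or 2 (highest edgeR adjusted p = 0.236). Bub1b, the checkpoint protein BubR1, had log2 fold changes of 0.21 ± 0.046 with shAD4-1 and 0.44 ± 0.046 with shAD4-2 against control, and Bub1, a kinetochore kinase, of 0.38 ± 0.063 with shAD4-2. Mad2l1, which holds Cdc20 back, was 0.24 ± 0.049 with shAD4-2 on the same scale.

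Of the 5 genes of anaphase ubiquitination and separation, 4 were lower with shAD4-1 against control, and 4 were higher with shAD4-2 against shAD4-1. With shAD4-2 against control 2 were higher and 2 lower (40% each), near the 34.2% and 34.8% of all tested genes. Cdc20 had 24.5, 27.5 and 24.0 CPM in the shAD4-1 libraries, 35.9, 34.4 and 36.0 CPM in the shAD4-2 libraries, and 21.6, 24.2 and 25.4 CPM in the control libraries. The shAD4-2 libraries were above the rest, and the shAD4-1 and control libraries overlapped. Cdc20 was 1.49-fold the control level with shAD4-2 (edgeR adjusted p = 9.06e-07), and for shAD4-1 the 95% interval of its log2 fold change ran from -0.060 to 0.24. Ube2c had 32.7, 36.6 and 35.2 CPM in the shAD4-1 libraries, 54.5, 55.2 and 53.8 CPM in the shAD4-2 libraries, and 44.4, 41.6 and 38.0 CPM in the control libraries. All shAD4-1 libraries lay below and all shAD4-2 libraries above the control libraries. Its log2 fold changes were -0.25 ± 0.062 with shAD4-1 (edgeR adjusted p = 0.00199) and 0.40 ± 0.061 with shAD4-2 (edgeR adjusted p = 1.14e-05) against control, and 0.65 ± 0.061 between the hairpins (edgeR adjusted p = 1.14e-06).

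Pttg1, the securin that inhibits separase, had 23.3, 25.2 and 27.4 CPM in the shAD4-1 libraries, 21.8, 24.4 and 21.9 CPM in the shAD4-2 libraries, and 33.6, 34.4 and 35.8 CPM in the control libraries. Control was highest in every library and the hairpin groups overlapped. Pttg1 was 1.37-fold lower with shAD4-1 (edgeR adjusted p = 1.47e-05) and 1.52-fold lower with shAD4-2 (edgeR adjusted p = 4.1e-07) than control. Espl1, the separase, was 1.44-fold lower with shAD4-1 (edgeR adjusted p = 4.16e-06); the log2 fold change of -0.20 ± 0.072 with shAD4-2 was lost without control replicate 2, control replicate 3, shAD4-2 replicate 1 or shAD4-2 replicate 3 (highest edgeR adjusted p = 0.0942).

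In the chromosomal passenger complex, which corrects attachments and then directs cytokinesis, the kinase and its partner differed. Of its 4 tested genes, 1 was higher and 2 lower with shAD4-1 against control, 2 were higher and 1 lower with shAD4-2 against control, and 4 were higher with shAD4-2 against shAD4-1. Aurkb, the kinase, had 19.3, 20.4 and 20.9 CPM in the shAD4-1 libraries, 25.4, 29.0 and 27.5 CPM in the shAD4-2 libraries, and 33.0, 32.6 and 30.4 CPM in the control libraries. Its 3 groups did not overlap and control was highest. Aurkb was 1.58-fold lower with shAD4-1 (edgeR adjusted p = 8.57e-08) and 1.17-fold lower with shAD4-2 (edgeR adjusted p = 0.00479). Birc5, the survivin subunit, had 38.8, 36.7 and 40.2 CPM in the shAD4-1 libraries, 54.9, 53.0 and 52.1 CPM in the shAD4-2 libraries, and 34.8, 35.1 and 34.1 CPM in the control libraries. Its groups did not overlap either, with control lowest. It was 1.54-fold the control level with shAD4-2 (edgeR adjusted p = 6.97e-09), and its log2 rise of 0.16 ± 0.054 with shAD4-1 was lost without shAD4-1 replicate 3 (edgeR adjusted p = 0.0817). Cdca8, the borealin subunit, was higher with shAD4-2 (log2 0.34 ± 0.058), and Incenp, the scaffold, lower with shAD4-1 (log2 -0.24 ± 0.061). The FPKM ratio of Birc5 to Aurkb was 1.285, 1.145 and 1.224 in the shAD4-1 libraries, 1.379, 1.165 and 1.207 in the shAD4-2 libraries, and 0.671, 0.685 and 0.714 in the control libraries, so every hairpin library was above every control library.

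The mitotic kinases Plk1 and Aurka, which drive centrosome maturation and mitotic entry, were both higher with shAD4-2 than with shAD4-1. Plk1 had 21.7, 19.7 and 20.5 CPM in the shAD4-1 libraries, 33.4, 35.2 and 30.8 CPM in the shAD4-2 libraries, and 33.6, 33.1 and 28.4 CPM in the control libraries. The shAD4-1 libraries lay below all others, and the shAD4-2 and control libraries overlapped. Plk1 was 1.53-fold lower with shAD4-1 than control (edgeR adjusted p = 8.26e-07) and 1.61-fold higher with shAD4-2 than with shAD4-1 (edgeR adjusted p = 4.16e-06). With shAD4-2 against control the 95% interval of its log2 fold change ran from -0.087 to 0.22.

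Aurka had 31.2, 28.4 and 30.6 CPM in the shAD4-1 libraries, 45.2, 45.7 and 46.7 CPM in the shAD4-2 libraries, and 40.1, 39.4 and 35.6 CPM in the control libraries. The groups did not overlap, with control between the hairpins. The log2 fold changes of Aurka were -0.35 ± 0.060 with shAD4-1 (edgeR adjusted p = 4.92e-05) and 0.26 ± 0.059 with shAD4-2 (edgeR adjusted p = 0.000823) against control. Plk4, which starts centriole duplication, passed in neither comparison with control, with 95% log2 intervals of -0.21 to 0.060 with shAD4-1 and -0.020 to 0.25 with shAD4-2. Its call between the hairpins (log2 0.19 ± 0.064) was lost without shAD4-1 replicate 1, shAD4-1 replicate 2, shAD4-2 replicate 1 or shAD4-2 replicate 3 (highest edgeR adjusted p = 0.166).

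Of the 6 genes of spindle assembly and microtubule binding, 3 were higher and 3 lower with shAD4-1 against control, 4 higher with shAD4-2 against control, and 6 higher with shAD4-2 against shAD4-1. Dlgap5, which stabilises kinetochore fibres, had 32.3, 30.4 and 30.0 CPM in the shAD4-1 libraries, 50.6, 51.2 and 54.5 CPM in the shAD4-2 libraries, and 20.04, 18.4 and 18.7 CPM in the control libraries. The groups did not overlap, with shAD4-2 highest and control lowest. Dlgap5 was 1.62-fold with shAD4-1 (edgeR adjusted p = 1.4e-08) and 2.74-fold with shAD4-2 (edgeR adjusted p = 3.49e-13) against control, and 1.69-fold between the hairpins (edgeR adjusted p = 1.05e-07). That last value was the largest rise between the hairpins among the 107 genes.

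Hmmr, a spindle pole protein that is also a hyaluronan receptor, had 53.4, 50.05 and 52.3 CPM in the shAD4-1 libraries, 71.5, 65.4 and 72.6 CPM in the shAD4-2 libraries, and 37.4, 36.0 and 30.2 CPM in the control libraries. Tpx2, the activator of Aurora A, had 114, 111 and 114 CPM in the shAD4-1 libraries, 145, 148 and 153 CPM in the shAD4-2 libraries, and 90.4, 87.5 and 84.3 CPM in the control libraries. For both genes control was lowest, shAD4-1 in the middle and shAD4-2 highest, without overlap. Their log2 fold changes with shAD4-2 against control were 1.02 ± 0.068 for Hmmr and 0.76 ± 0.041 for Tpx2, and with shAD4-1 0.59 ± 0.069 for Hmmr and 0.37 ± 0.041 for Tpx2. Aspm and Nusap1, which organise microtubules at poles and around chromosomes, fell with shAD4-1 (log2 -0.29 ± 0.056 for Aspm and -0.50 ± 0.063 for Nusap1) and did not pass with shAD4-2 (log2 -0.0086 ± 0.055 for Aspm and 0.0015 ± 0.062 for Nusap1). Prc1, the bundler of the midzone, was higher with shAD4-2 (log2 0.29 ± 0.043); its call with shAD4-1 (log2 -0.10 ± 0.043) was lost without any one library except shAD4-1 replicate 1 (highest edgeR adjusted p = 0.203).

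Top2a and Mki67, which are often used together as proliferation markers, moved in opposite directions against control. Top2a had 325, 326 and 329 CPM in the shAD4-1 libraries, 439, 439.9 and 433 CPM in the shAD4-2 libraries, and 301, 278 and 264 CPM in the control libraries. Mki67 had 144, 147 and 142 CPM in the shAD4-1 libraries, 189, 192 and 188 CPM in the shAD4-2 libraries, and 261, 249 and 243 CPM in the control libraries. Control was lowest for Top2a and highest for Mki67 in every library, with no overlap between any 2 groups. Top2a was 1.16-fold the control level with shAD4-1 (edgeR adjusted p = 0.000159) and 1.55-fold with shAD4-2 (edgeR adjusted p = 1.59e-10). Mki67 was 1.74-fold lower with shAD4-1 (edgeR adjusted p = 2.17e-12) and 1.32-fold lower with shAD4-2 (edgeR adjusted p = 2.09e-08). The FPKM ratio of Top2a to Mki67 was 4.44 ± 0.0976 in the shAD4-1 libraries, 4.51 ± 0.0390 in the shAD4-2 libraries and 2.19 ± 0.0612 in the control libraries (mean ± SD, n = 3 each). Between the hairpins both genes were higher with shAD4-2, with log2 fold changes of 0.42 ± 0.041 for Top2a and 0.40 ± 0.038 for Mki67.

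The condensins compact mitotic chromosomes around a shared pair, Smc2 and Smc4, with 3 further subunits in condensin I and 3 in condensin II. Of these 8 genes with Top2a and Mki67, 5 were higher and 4 lower with shAD4-1 against control, 5 higher and 2 lower with shAD4-2 against control, and 6 higher with shAD4-2 against shAD4-1. Smc2 had 137, 139 and 145 CPM in the shAD4-1 libraries, 140.0, 141 and 150.2 CPM in the shAD4-2 libraries, and 92.8, 83.1 and 77.5 CPM in the control libraries. All hairpin libraries exceeded all control libraries, and the hairpin groups overlapped. Smc2 was 1.66-fold with shAD4-1 (edgeR adjusted p = 1.15e-09) and 1.70-fold with shAD4-2 (edgeR adjusted p = 5.13e-10) against control. The FPKM ratio of Smc2 to Smc4 was 1.04 ± 0.0283 in the shAD4-1 libraries, 1.02 ± 0.00371 in the shAD4-2 libraries and 0.689 ± 0.0306 in the control libraries (mean ± SD, n = 3 each). Ncaph, the condensin I kleisin, was higher with shAD4-2 than control (log2 0.67 ± 0.053, edgeR adjusted p = 2.28e-09); its smaller value with shAD4-1 (log2 0.14 ± 0.053) was lost without control replicate 2 or shAD4-1 replicate 1 (highest edgeR adjusted p = 0.212). Ncaph2, the condensin II kleisin, had 88.5, 88.0 and 81.9 CPM in the shAD4-1 libraries, 92.0, 87.4 and 92.5 CPM in the shAD4-2 libraries, and 110.1, 119 and 124 CPM in the control libraries. Control was highest, and the hairpin groups overlapped. Ncaph2 was 1.37-fold lower with shAD4-1 (edgeR adjusted p = 2.12e-07) and 1.30-fold lower with shAD4-2 (edgeR adjusted p = 1.81e-06).

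All 3 cytokinesis genes were higher with shAD4-2 than with control and than with shAD4-1. Anln, the actin scaffold of the contractile ring, had 106, 104 and 110.2 CPM in the shAD4-1 libraries, 134, 139 and 135 CPM in the shAD4-2 libraries, and 85.4, 88.7 and 85.0 CPM in the control libraries. The groups did not overlap. Anln was 1.24-fold with shAD4-1 (edgeR adjusted p = 2.37e-06) and 1.57-fold with shAD4-2 (edgeR adjusted p = 7.28e-11) against control. Racgap1 and Ect2, which switch on RhoA at the cell equator, had log2 fold changes of 0.23 ± 0.045 for Racgap1 and 0.33 ± 0.064 for Ect2 with shAD4-2 against control. With shAD4-1 Racgap1 fell (log2 -0.17 ± 0.045), and Ect2 had a 95% interval of -0.14 to 0.14.

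Foxm1, the transcription factor that acts on many of these genes, had 47.3, 47.5 and 47.5 CPM in the shAD4-1 libraries, 61.4, 59.3 and 61.1 CPM in the shAD4-2 libraries, and 62.0, 58.9 and 54.8 CPM in the control libraries. The shAD4-1 libraries were lowest, and the shAD4-2 and control libraries overlapped. Foxm1 fell with shAD4-1 against control (log2 -0.30 ± 0.051, edgeR adjusted p = 4.52e-05) and was higher with shAD4-2 than with shAD4-1 (log2 0.35 ± 0.051, edgeR adjusted p = 6.88e-05). Against control its 95% log2 interval with shAD4-2 ran from -0.057 to 0.16.

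The 5 other genes named for cell division cycle association counted 1 higher and 2 lower with shAD4-1 against control, 5 higher with shAD4-2 against control, and 3 higher with shAD4-2 against shAD4-1. Cdca2, which brings a phosphatase to anaphase chromatin, had log2 fold changes of -0.39 ± 0.081 with shAD4-1 against control and 0.58 ± 0.081 between the hairpins. Cdca5, the sororin that protects cohesin, was higher with shAD4-2 than control (log2 0.44 ± 0.10), as were Cdca4 (log2 0.39 ± 0.050) and Cdca7 (log2 0.25 ± 0.059), a chromatin protein. The calls of Cdca2 and Cdca3 with shAD4-2 against control (log2 0.19 ± 0.079 for Cdca2 and 0.13 ± 0.052 for Cdca3) were lost without single libraries: control replicate 1, shAD4-2 replicate 1 or shAD4-2 replicate 3 for Cdca2, and control replicate 2 or shAD4-2 replicate 2 for Cdca3 (highest edgeR adjusted p = 0.204 for Cdca2 and 0.0958 for Cdca3). Cenpj, a centriole protein that shares the CENP name, had a log2 fold change of 0.23 ± 0.075 with shAD4-2 against control that was lost without shAD4-2 replicate 2 (edgeR adjusted p = 0.0769). Cenpv, which was in no role list, was higher with shAD4-2 than control (log2 0.49 ± 0.078).

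The other kinesins differed from the 83 remaining tested genes in the comparisons with shAD4-2, and lay near them with shAD4-1 against control. Of 24 tested, 7 were higher and 10 lower with shAD4-1 against control (29.2% and 41.7%, beside 22.9% and 38.6% of the remaining genes). With shAD4-2 against control, 5 were higher and 9 lower (20.8% and 37.5%, beside 61.4% and 10.8%). With shAD4-2 against shAD4-1, 1 was higher and 6 lower (4.17% and 25%, beside 74.7% and 0%). Kifc2, a minus-end motor best known from neurons, had 3.59, 3.52 and 3.14 CPM in the shAD4-1 libraries, 1.86, 1.55 and 1.26 CPM in the shAD4-2 libraries, and 4.77, 6.37 and 7.42 CPM in the control libraries. The groups did not overlap and shAD4-2 was lowest. Kifc2 was 1.82-fold lower with shAD4-1 (edgeR adjusted p = 0.000327) and 3.95-fold lower with shAD4-2 (edgeR adjusted p = 5.28e-08) than control, and 2.18-fold lower with shAD4-2 than with shAD4-1 (edgeR adjusted p = 0.000547).

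Kif26a, a kinesin without motor activity, had 6.68, 6.52 and 6.91 CPM in the shAD4-1 libraries, 3.89, 3.27 and 3.87 CPM in the shAD4-2 libraries, and 10.2, 9.94 and 11.4 CPM in the control libraries, in the same order. It was 1.57-fold lower with shAD4-1 (edgeR adjusted p = 5.03e-05) and 2.85-fold lower with shAD4-2 (edgeR adjusted p = 2.32e-09) than control. Kif21b and Kif21a, which restrain microtubule growth, fell with both hairpins. Kif21b had 460.4, 448 and 415 CPM in the shAD4-1 libraries, 374, 359 and 349 CPM in the shAD4-2 libraries, and 543, 589 and 599 CPM in the control libraries. Its groups did not overlap, with control highest. Its log2 fold changes were -0.39 ± 0.045 with shAD4-1 and -0.68 ± 0.046 with shAD4-2 against control. Kif21a had log2 fold changes of -0.55 ± 0.045 with shAD4-1 and -0.74 ± 0.045 with shAD4-2. Kif9, known from the sperm flagellum, had log2 fold changes of -0.74 ± 0.14 with shAD4-1 and -0.91 ± 0.15 with shAD4-2, and Kif3c, a kinesin-2 subunit, of -0.46 ± 0.053 with shAD4-1 and -0.61 ± 0.053 with shAD4-2.

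Kif3b, the kinesin-2 subunit that pairs with Kif3a in cilia, and Kif2a, a microtubule depolymerase, rose with both hairpins. Kif3b had log2 fold changes of 0.39 ± 0.047 with shAD4-1 and 0.49 ± 0.047 with shAD4-2 against control, and Kif2a of 0.34 ± 0.050 with shAD4-1 and 0.43 ± 0.050 with shAD4-2. Kif19a, which trims cilia, had 1.49, 1.503 and 1.82 CPM in the shAD4-1 libraries, 1.70, 2.26 and 2.19 CPM in the shAD4-2 libraries, and 0.708, 0.510 and 0.831 CPM in the control libraries. Every hairpin library was above every control library, and the hairpin groups overlapped. Its log2 fold changes were 1.23 ± 0.28 with shAD4-1 (edgeR adjusted p = 0.000913) and 1.58 ± 0.28 with shAD4-2 (edgeR adjusted p = 6.42e-05) against control. Kif6 had 4.83, 4.20 and 7.02 CPM in the shAD4-1 libraries, 4.23, 4.17 and 3.03 CPM in the shAD4-2 libraries, and 3.35, 4.10 and 2.95 CPM in the control libraries. The shAD4-1 libraries lay just above control, and the shAD4-2 libraries overlapped both. Its call with shAD4-1 (log2 0.63 ± 0.20) was lost without shAD4-1 replicate 3, the highest library (edgeR adjusted p = 0.105). Kif27, a kinesin linked to motile cilia, had 90 reads summed over the shAD4-1 libraries, 32 over the shAD4-2 libraries and 35 over the control libraries. Its fall with shAD4-2 against shAD4-1 (log2 -1.35 ± 0.41) was lost without shAD4-1 replicate 1, shAD4-1 replicate 3, shAD4-2 replicate 2 or shAD4-2 replicate 3 (highest edgeR adjusted p = 0.0915).

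Per length, the most abundant of the 111 genes was Ube2s, which extends ubiquitin chains on the substrates of the anaphase-promoting complex, at 197 ± 5.34 FPKM with shAD4-1, 215 ± 8.92 FPKM with shAD4-2 and 222 ± 8.70 FPKM with control (SD, n = 3 each). Kif5b, the conventional kinesin heavy chain, was at rank 2 in every group, at 85.8 ± 2.31 FPKM with shAD4-1, 85.0 ± 2.25 FPKM with shAD4-2 and 82.5 ± 3.10 FPKM with control. Top2a was at 61.4 ± 0.378 FPKM with shAD4-1, 82.4 ± 0.701 FPKM with shAD4-2 and 55.1 ± 3.81 FPKM with control, at rank 3 in both hairpin groups and rank 6 in control. Bub3, which carries the checkpoint proteins to kinetochores, was at 60.9 ± 1.51 FPKM with shAD4-1, 61.1 ± 3.70 FPKM with shAD4-2 and 66.8 ± 2.86 FPKM with control, and with shAD4-1 the gap between Top2a and Bub3 was within their spread. Mki67 was at 13.9 ± 0.224 FPKM with shAD4-1, 18.3 ± 0.209 FPKM with shAD4-2 and 25.1 ± 1.04 FPKM with control, which placed it 28 in the order of levels in each hairpin group and 11 in control. The lowest tested genes per length were Kif27, Kif5c and Kif5a, at under 0.13 FPKM on average in every group.

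Promoters were found in the RefSeq table for 93 of the 111 genes, 105 promoters in all, each covering 250 bases before to 50 after the start. A CHR core within 50 bases of the start, on either side, stood in 42.9% of them, beside 5.31% of all 32851 promoters in the table. Without the other kinesins the share was 51.2% of 82 promoters, and among the other kinesins it was 13% of 23. A CCAAT box anywhere in the window stood in 57.1% of the 105 promoters and in 37.4% of all promoters. The cores clustered at the start: 22% of the 82 promoters had one in the 50 bases before it and 29.3% in the 50 after it, against 2.44% in the step from 100 to 50 bases before it. CCAAT boxes were commonest before the start, in 35.4% of the 82 promoters in the 50 bases next to it and in 32.9% in the 50 bases before those. By role, 8 of 12 mitotic kinesins with a promoter in the table, 5 of 7 outer kinetochore genes, 4 of 5 checkpoint genes and 3 of 3 cytokinesis genes had a core near the start, beside 3 of 17 centromere and inner kinetochore genes and 3 of 19 other kinesins.

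**Figure D5:**
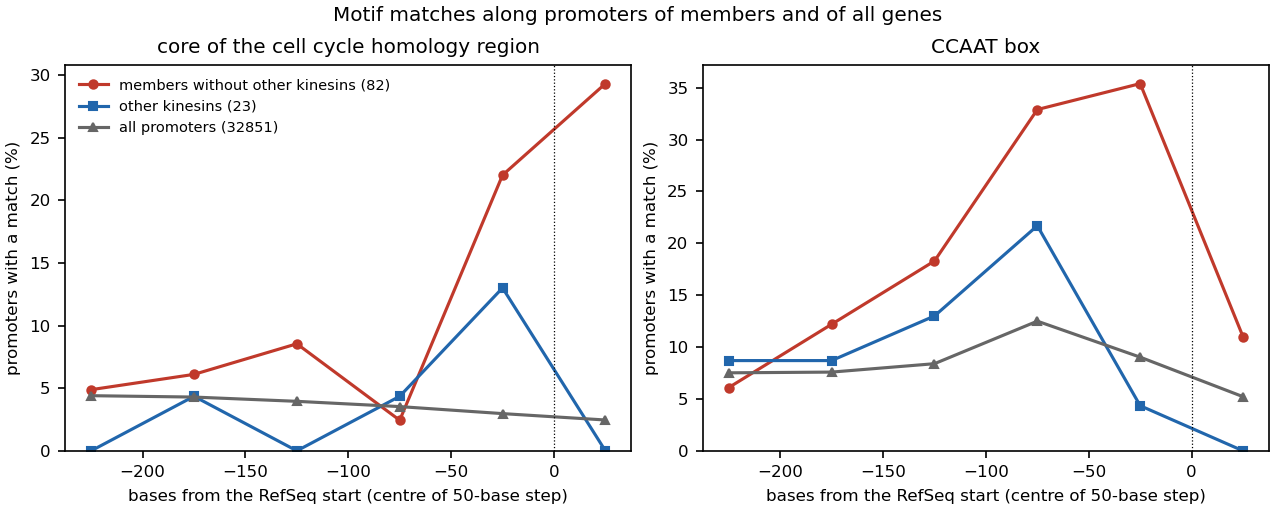
Share of promoters (%, y axis) with a CHR core (left) or a CCAAT box (right) in each step of 50 bases, by distance from the RefSeq start (x axis), for the genes without other kinesins (82 promoters), the other kinesins (23) and all promoters in the table (32851). The first group reaches 22% and 29.3% around the start for the CHR core, while all promoters stay under 5% in every step.

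The core near the start was set beside the expression change as a description. Of the 42 tested genes with a core, 9 were higher and 15 lower with shAD4-1 against control (21.4% and 35.7%). Of the 48 without one, 12 were higher and 17 lower (25% and 35.4%), so the shares were near each other. With shAD4-2 against control, 30 with a core were higher and 3 lower (71.4% and 7.14%), beside 20 and 10 without one (41.7% and 20.8%). With shAD4-2 against shAD4-1, 34 of the 42 tested genes with a core near the start were higher (median log2 fold change 0.386), and of the 48 without one 20 were higher and 4 lower (median 0.176). When the other kinesins were left out, 34 of 40 genes with a core were higher (median 0.388), and 19 of 33 without one (median 0.314). Among tested genes outside these families, 455 had such a core, of which 88 were higher and 64 lower (19.3% and 14.1%), with a median of 0.03. Of the 10391 such genes without a core, 13.4% were higher and 14% lower, with a median of -0.003. The promoters of Top2a and Mki67 printed above both hold CHR cores and CCAAT boxes, but only Top2a had a core near the start. Against control these genes had log2 fold changes of opposite sign, and a link to their promoters was not tested. A match is a stretch of letters and was not tested as a site.

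Of 104 genes of the surrounding pathways, chosen as 6 lists, all were tested. With shAD4-1 against control, 49 were higher and 31 lower (47.1% and 29.8%), beside 32.7% and 32.3% of all tested genes. With shAD4-2 against control, 60 were higher and 19 lower (57.7% and 18.3%), beside 34.2% and 34.8%. With shAD4-2 against shAD4-1, 52 were higher and 1 lower (50% and 0.962%), beside 13.4% and 14%. The medians over the 104 genes were 0.082, 0.185 and 0.167. The same shares of all tested genes stand beside each list below. Of 16 genes of the CDK1 and cyclin switch, which starts mitosis, 7 were higher and 4 lower with shAD4-1 against control, 11 higher and 3 lower with shAD4-2 against control, and 12 higher with shAD4-2 against shAD4-1. Ccnb1, a B cyclin of CDK1, had 48.0, 46.0 and 45.2 CPM in the shAD4-1 libraries, 64.1, 63.5 and 63.7 CPM in the shAD4-2 libraries, and 33.3, 32.2 and 29.3 CPM in the control libraries. Its groups did not overlap, and its log2 fold changes were 0.56 ± 0.056 with shAD4-1 (edgeR adjusted p = 7.17e-08) and 1.01 ± 0.055 with shAD4-2 (edgeR adjusted p = 1.33e-11) against control. Ccnb2, another B cyclin, was lower with both hairpins than with control. Its log2 fold changes were -0.70 ± 0.068 with shAD4-1 (edgeR adjusted p = 5.08e-08) and -0.18 ± 0.067 with shAD4-2 (edgeR adjusted p = 0.0213). Ccna2, the A cyclin, had log2 fold changes of 0.26 ± 0.052 with shAD4-1 and 0.75 ± 0.052 with shAD4-2. For Cdk1, the kinase itself, they were 0.15 ± 0.049 with shAD4-1, a call lost without shAD4-1 replicate 3 (edgeR adjusted p = 0.0503), and 0.57 ± 0.049 with shAD4-2.

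Of 19 genes of the MIS12 and RZZ complexes and of CENP-A loading, 13 were higher and 4 lower with shAD4-1 against control, 14 higher and 1 lower with shAD4-2 against control, and 12 higher between the hairpins. Kntc1, the large RZZ subunit, and Mis12, which joins the inner to the outer kinetochore, rose with both hairpins. Kntc1 averaged 78.3 ± 1.87 CPM with shAD4-1, 96.6 ± 1.38 CPM with shAD4-2 and 43.5 ± 2.33 CPM with control, and Mis12 averaged 82.8 ± 4.40 CPM with shAD4-1, 90.1 ± 1.03 CPM with shAD4-2 and 44.5 ± 1.45 CPM with control (SD, n = 3 each). The log2 fold changes of Kntc1 were 0.85 ± 0.048 with shAD4-1 and 1.15 ± 0.048 with shAD4-2 against control, and those of Mis12 0.90 ± 0.049 with shAD4-1 and 1.02 ± 0.049 with shAD4-2.

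Of 11 genes of MuvB, B-Myb and the DREAM complex, which bind the CHR, 5 were higher and 1 lower with shAD4-1 against control, 8 higher and 1 lower with shAD4-2 against control, and 5 higher between the hairpins. Mybl2, the B-Myb subunit, averaged 14.1 ± 1.02 CPM with shAD4-1, 16.4 ± 1.36 CPM with shAD4-2 and 9.29 ± 1.01 CPM with control (SD, n = 3 each), with log2 fold changes of 0.60 ± 0.099 with shAD4-1 and 0.82 ± 0.099 with shAD4-2 against control. Lin54, the MuvB subunit that contacts the CHR, had log2 fold changes of 0.46 ± 0.072 with shAD4-1 and 0.70 ± 0.071 with shAD4-2, and Tfdp1, the partner of E2F factors, of 0.49 ± 0.042 with shAD4-1 and 0.63 ± 0.042 with shAD4-2. Of 16 genes of the anaphase-promoting complex and its inhibitor, 5 were higher and 10 lower with shAD4-1, 5 higher and 8 lower with shAD4-2, and 4 higher between the hairpins. Anapc15, the subunit that helps release the checkpoint complex, had log2 fold changes of -0.88 ± 0.076 with shAD4-1 and -1.01 ± 0.077 with shAD4-2 against control, and Cdc23, a scaffold subunit, of -0.51 ± 0.043 with shAD4-1 and -0.40 ± 0.043 with shAD4-2.

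Of 14 cohesin and shugoshin genes, 8 were higher and 4 lower with shAD4-1, 9 higher and 1 lower with shAD4-2, and 7 higher between the hairpins; Stag1, a cohesin subunit, had log2 fold changes of 0.47 ± 0.061 with shAD4-1 and 0.69 ± 0.061 with shAD4-2 against control, and Pds5a, a cohesin regulator, of 0.46 ± 0.041 with shAD4-1 and 0.58 ± 0.041 with shAD4-2. Of 28 genes of centrosomes, augmin and microtubules, 11 were higher and 8 lower with shAD4-1, 13 higher and 5 lower with shAD4-2, and 12 higher and 1 lower between the hairpins. The shAD4-1 shares, 39.3% and 28.6%, were near those over all tested genes. Tacc3, which bundles kinetochore fibres, had log2 fold changes of 0.37 ± 0.059 with shAD4-1 and 0.84 ± 0.059 with shAD4-2 against control, and Haus6, of the augmin complex, of 0.76 ± 0.056 with shAD4-1 and 0.78 ± 0.056 with shAD4-2.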

How the data were processed

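The 9 libraries hold RNA of cultured B16 cells, prepared with the VAHTS Universal V6 kit per the labels' protocols. The submitters' processing notes name fastp, HISAT2, HTSeq and the GRCm39 build. Tool versions and the strand setting were not given in the sources used here. Whether reads of genes overlapping on opposite strands were counted apart is therefore not known. The authors deposited whole-number read counts for each gene, and FPKM for the same genes. Columns named Con, KD1 and KD2 were matched to the control, shAD4-1 and shAD4-2 by number. Adgrl4 was not analysed here.

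Counts were fitted with edgeR 4.0.16 (R 4.3.3) over all 9 libraries: filterByExpr, which left 13807 genes with 99.968% of reads, TMM scaling, glmQLFit and glmQLFTest with group alone as a term, and Benjamini-Hochberg adjustment at 0.05. Each SE was taken as the size of the log2 fold change over the root of F. The fit was tested on simulated data. FPKM was used for levels between genes. The alternatives tried were other scalings (upper-quartile, RLE) and filters, DESeq2 1.42.0, only the groups compared, a replicate block, each library left out, limma 3.58.1 on log2(FPKM + 1) and log2(FPKM + 0.1), protein-coding genes only, no mitochondrially encoded genes, and a fold minimum of 1.5. A motif search of kinesin proteins was not run.

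The genes, the role lists and the neighbour lists were chosen with earlier results of these data known. Named with values were the 3 genes of each role list with the smallest adjusted p per comparison, the 8 largest called rises and falls per comparison with at least 1 CPM and no overlap between groups, 2 genes per neighbour list, and a few well-known genes. Spc24, Spc25, Cenpk, Cenpl, Nusap1, Aspm, Ube2s, Bub3, Kif5a, Kif5b, Kif5c, Kif3b, Kif2a, Kif23, Kif27 and Ccnb2 were named after their values were seen.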

Additional observations from a re-analysis of the deposited data

Results flagged for a closer look

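In 8 genes the hairpins went opposite ways: each was lower than control with shAD4-1 and higher than control with shAD4-2, and the difference between the hairpins itself passed the test (edgeR, Benjamini-Hochberg adjusted). The log2 fold change of shAD4-2 against shAD4-1 was 0.6467 for Ube2c (edgeR adjusted p = 1.14e-06), 0.6099 for Aurka (edgeR adjusted p = 1.48e-06), 0.5814 for Cdca2 (edgeR adjusted p = 4.37e-05) and 0.5129 for Cdca3 (edgeR adjusted p = 2.21e-06). It was 0.4126 for Kif23, the motor of centralspindlin (edgeR adjusted p = 2.69e-05), 0.4094 for Cenpf, a large outer kinetochore protein (edgeR adjusted p = 3.82e-05), 0.4055 for Racgap1 (edgeR adjusted p = 4.76e-06) and 0.3892 for Prc1 (edgeR adjusted p = 4.63e-06). Both comparisons with control use the same control libraries. In each of the 8 genes all 3 shAD4-2 libraries were above all 3 shAD4-1 libraries. The genes were picked by these calls, so this order of libraries is no further support. The share of all tested genes with the same opposite calls is not given here, so the 8 are not set against a background. Libraries of the hairpin groups did not overlap in 78 of the 107 tested genes and in 6143 of all 13807 tested genes. The fall of Cenpf with shAD4-1 against control (log2 -0.15 ± 0.056) was lost without any one of the shAD4-1 libraries or control replicate 1 or 2 (highest edgeR adjusted p = 0.178), and the limits of the Prc1, Cdca2 and Cdca3 calls are given beside their values above.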

How the results depend on the processing

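No called gene of the 107 changed sign under any alternative, and of the 68, 74 and 69 calls with shAD4-1 against control, shAD4-2 against control and shAD4-2 against shAD4-1, 54, 63 and 58 were kept under every alternative other than the fold minimum. With 1 library left out, the counts of higher and lower genes were 21 to 28 and 38 to 43 with shAD4-1, 52 to 59 and 16 to 20 with shAD4-2, and 57 to 68 and 4 to 7 between the hairpins, with medians between -0.094 and -0.064, 0.185 and 0.249, and 0.3 and 0.334. A fold minimum of 1.5 left 10 higher and 8 lower with shAD4-1, 16 and 8 with shAD4-2, and 6 and 3 between the hairpins, by its own construction. Limma on log2(FPKM + 1) and on log2(FPKM + 0.1), with at least 1 FPKM in 3 libraries, each called 17 genes higher with shAD4-1; the cause was not tested. The medians with shAD4-1 were -0.097 with upper-quartile scaling, -0.094 with protein-coding genes only, and -0.139, -0.153 and -0.1 with limma on log2(FPKM + 1), log2(FPKM + 0.1) and log2(FPKM + 1) without a filter; the medians over all genes in the same fits were -0.032, -0.007, -0.051, -0.058 and -0.001, beside -0.01. With shAD4-2 these medians were 0.186, 0.194, 0.138, 0.15 and 0.098, and over all genes -0.043, -0.009, -0.044, -0.05 and 0, beside -0.011. Between the hairpins limma on log2(FPKM + 1) gave 0.278 with and 0.231 without the filter, and 0.006 and 0 over all genes. Ect2 with shAD4-1, Foxm1 with shAD4-2 and Haus6 between the hairpins were not called and lay near 0: Ect2 was -0.021 with upper-quartile scaling, -0.004 with at least 1 CPM in 3 libraries, between -0.065 and 0.08 with 1 library left out (-0.012 without shAD4-1 replicate 3), -0.051, -0.055 and -0.051 with the limma settings and -0.018 with protein-coding genes only, Foxm1 was -0.005 with the limma settings, and Haus6 was between -0.044 and 0.074 with 1 library left out (-0.006 without shAD4-1 replicate 2). Replicate numbers did not pair the libraries: the correlation of same-numbered libraries was between -0.124 and 0.002, and in 0 of 18 cases (9 libraries, each against the other 2 groups) did a library correlate best with its own number. With the replicate number as a block 27 genes were higher and 42 lower with shAD4-1, 56 and 18 with shAD4-2, and 60 and 5 between the hairpins. Calls of genes with few reads, such as Kif27, Kif5c and Kif6, rest on low depth.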
